A study of Mus musculus with 20 samples.

Results

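Mitochondrial ribosomal proteins were taken as every gene whose mouse symbol begins with Mrpl or Mrps followed by a number, with symbols assigned from the Ensembl identifiers of the count table. The rule found 80 genes among the 15956 genes counted, of which 77 are annotated as protein-coding and 3 as processed pseudogenes. The protein-coding genes comprised 48 genes named for the large subunit and 29 named for the small subunit. A filter on low counts kept 78 of the 80 genes for testing, and Mrps18b and the pseudogene Mrps36-ps1 did not pass it. Of the 78 tested genes, 74 had a mean normalized count over 50.

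RNA was sequenced from the left ventricle of 20 male mice from the Jackson Laboratory, 5 on each of 4 diets. NP mice ate a normal-protein diet, LP mice a low-protein diet, HF mice a high-fat diet with normal protein, and HF + LP mice a diet that was both high in fat and low in protein. All mice were labelled as 18 months old, whereas the study's methods give a younger age at which the mice were killed, so the label and the methods differ. No allele or agent differed between the groups, and mice with the same animal number in different groups were different animals. Total counts lay between 12559607 and 23331907 per mouse, and counts on genes of the mitochondrial genome made up 38.7% ± 0.751 of them in HF, 43.3% ± 3.37 in HF + LP, 40.3% ± 3.94 in LP and 43.2% ± 2.48 in NP (SD over 5 mice). All 6 cardiomyocyte markers were counted in every mouse, with a summed level of 47190 to 68041 CPM (counts scaled to a library of 1e+06, here of nuclear counts alone). LP mouse 13 and LP mouse 20 stood apart from the other mice. LP mouse 13 had 26582 CPM on 4 atrial markers and 533 on 4 adipocyte markers, where the NP mice had 233 to 6095 and at most 69.4. HF mouse 1 also had 20490.4 CPM on the atrial markers. LP mouse 20 had 107 CPM on 3 lymphocyte markers, where the other 19 mice had 1.55 to 5.85, and 246 on the adipocyte markers. No marker of these 3 lists was at 0 over a whole group. The part of these markers in the results was not tested. The counts of the LP comparisons are given with and without these mice. So are the estimates of most genes with the smallest p in them, but not that of Mrps5 in HF + LP against LP. In bulk tissue, fewer cells of a type and less RNA per cell cannot be told apart.

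Mitochondrial ribosomes translate the messenger RNAs of the mitochondrial genome, all of which encode subunits of oxidative phosphorylation complexes. Their ribosomal RNAs are encoded in mitochondria, but every ribosomal protein is encoded in the nucleus, made in the cytosol and imported. The small subunit reads the messenger RNA and the large subunit forms the peptide bond and feeds the new protein into the inner membrane. The heart depends on oxidative phosphorylation, and inherited defects of several of these proteins cause cardiomyopathy.

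Promoter sequences of 68 of the 80 genes were found in RefSeq (GRCm38.p6), each read as the 250 bases before the annotated start. They were searched on both strands for 3 short motifs of factors linked to nuclear genes of mitochondrial proteins. The ETS motif CCGGAAG, bound by GABP, was present in 16 of 68 promoters (23.5%), against 13.3% of the promoters of 10249 other tested genes and 7.05% of all 27025 promoters. The NRF1 motif GCATGCGC was present in 8 (11.8%), against 4.39% and 2.32%. The YY1 motif AAGATGGC was present in 4 (5.88%), against 1.95% and 1.59%. A match describes letters and not a bound site, and no match says only that these letters were not in this window. No motif contains another, but a promoter could hold more than 1 of them, and 25 of 68 (36.8%) held at least 1 against 18.5% of other tested genes. Mrpl43 and Mrpl22 are shown because their promoters held such motifs and both genes were among those with higher values in HF + LP than in LP, and Mrpl45 because it had the smallest p of all these genes for the interaction of fat and protein and held none. Whether the motifs go with the diet values was not tested, and these examples do not show it. Sequences run from 5′ to 3′ on the gene's strand, with motifs in capitals (ETS in Mrpl43, ETS and then NRF1 in Mrpl22).
Mrpl43, chr19:45006443-45006692, minus strand: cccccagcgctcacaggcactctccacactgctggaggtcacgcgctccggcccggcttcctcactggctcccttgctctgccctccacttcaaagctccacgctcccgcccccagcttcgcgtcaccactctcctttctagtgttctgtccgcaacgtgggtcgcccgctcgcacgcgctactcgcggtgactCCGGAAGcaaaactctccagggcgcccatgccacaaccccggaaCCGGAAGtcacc
Mrpl22, chr11:58171414-58171663, plus strand: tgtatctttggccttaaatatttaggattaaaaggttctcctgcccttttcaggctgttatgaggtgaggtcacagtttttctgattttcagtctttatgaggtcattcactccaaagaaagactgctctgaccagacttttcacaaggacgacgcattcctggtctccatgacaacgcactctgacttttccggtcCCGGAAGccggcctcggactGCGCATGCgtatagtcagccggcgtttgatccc
Mrpl45, chr11:97315466-97315715, plus strand: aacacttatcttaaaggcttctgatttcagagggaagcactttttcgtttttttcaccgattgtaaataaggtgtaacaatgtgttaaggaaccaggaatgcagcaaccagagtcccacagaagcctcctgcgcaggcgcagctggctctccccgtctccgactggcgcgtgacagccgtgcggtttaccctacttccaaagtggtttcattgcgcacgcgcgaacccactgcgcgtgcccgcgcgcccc

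Levels are given as normalized counts, read counts scaled to the average library by the trimmed mean of M-values. The reads come from the 3′ end of polyadenylated transcripts, so longer transcripts do not collect more reads, but the number of usable end sites can still differ between genes. Among the 74 genes above 50, mean levels spanned 65.4-fold. Mrpl42 had the highest level, 4472 normalized counts on average over the 20 mice, followed by Mrpl34 with 3096 and Mrpl18 with 2348, all of the large subunit. Mrpl42 lay between 3770 and 4994 in single mice and Mrpl34 between 2300 and 3975, so the range of Mrpl34 overlapped that of both neighbours. The lowest levels were those of the pseudogene Mrps36-ps1, of Mrps18b with 5.73, of the pseudogene Mrps36-ps2, of the large-subunit gene Mrpl23 with 10.6 (2.54 to 22.9 in single mice, 225 reads in all) and of the pseudogene Mrpl23-ps1. Reads of a processed pseudogene and its parent can be confused, and Mrpl23-ps1 held 232 reads in all. The levels of the pseudogenes and of their parents Mrpl23 and Mrps36 are therefore uncertain.

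**Figure D1:**
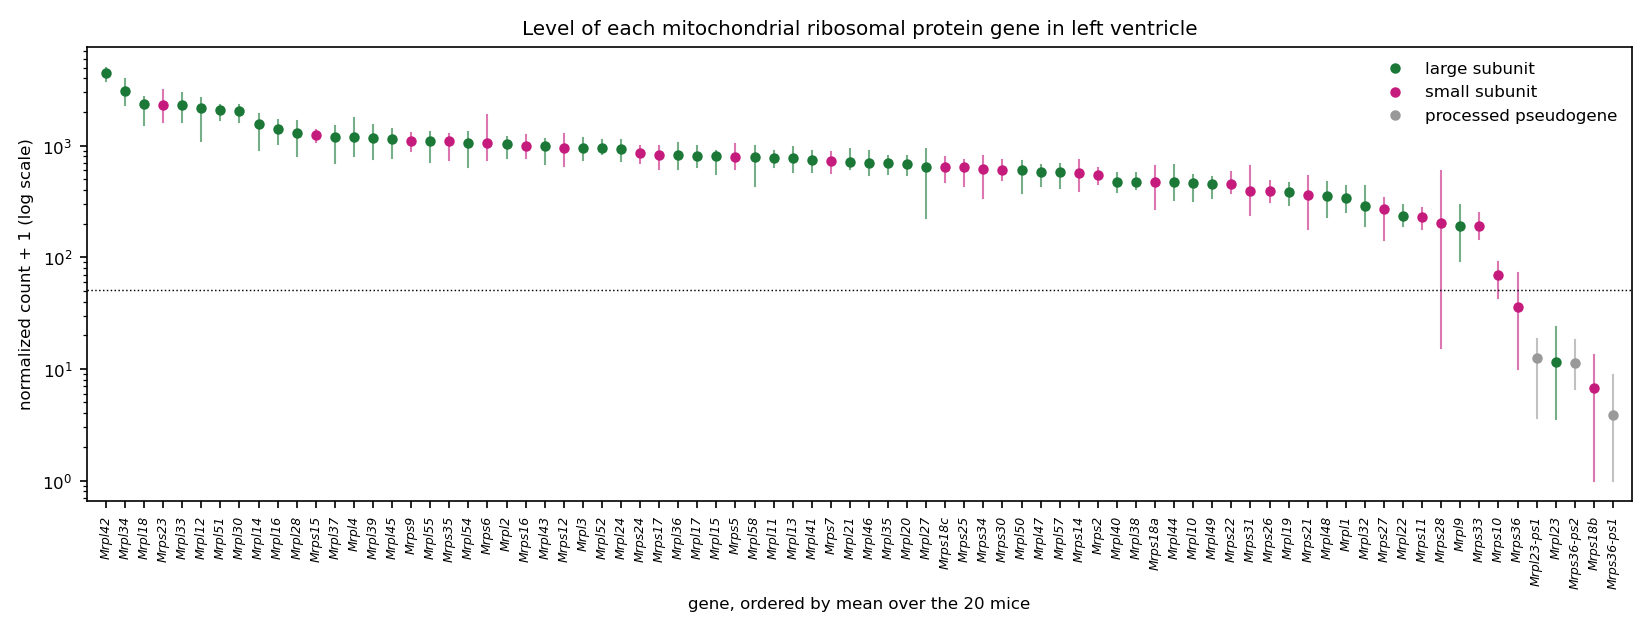
Normalized count plus 1 (log axis) of each of the 80 genes, ordered by the mean over 20 mice, with points for the mean, lines from the lowest to the highest mouse and colour for the subunit. The levels fall from 4472 for Mrpl42 to below 13 for the pseudogenes, the dotted line marks a count of 50, and Mrps28 has the longest line among genes above it (14.5 to 597).

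The 3 paralogs of bacterial ribosomal protein S18 differed in level. Mrps18c averaged 641 normalized counts and lay between 472 and 787. Mrps18a, whose protein sits in the large subunit in spite of its name, averaged 467 and lay between 271 and 658, so their ranges overlapped. Mrps18b lay between 0 and 12.4, below every mouse of the other paralogs. Mrps36, now known mainly as a subunit of the 2-oxoglutarate dehydrogenase complex, averaged 35.1 and lay between 8.90 and 71.9. Mrpl58, a peptidyl-tRNA hydrolase built into the large subunit, averaged 786.

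As a group the genes took a similar share of the nuclear counts in every diet. They held 6601 ± 307 CPM of nuclear counts in LP, 6821 ± 219 in NP, 6930 ± 163 in HF and 6965 ± 262 in HF + LP (SD over 5 mice). Single mice lay at 7034, 6458, 6820, 6937 and 6855 in NP (animals 4, 5, 3, 6 and 8), at 6878, 6436, 6154, 6862 and 6675 in LP (animals 2, 13, 20, 15 and 5), at 6679, 6887, 6935, 7068 and 7080.1 in HF (animals 1 to 5) and at 6870 (animal 1), 7432, 6822, 6822 and 6882 in HF + LP. All 4 groups overlapped, LP mouse 20 had the lowest share and HF + LP mouse 2 the highest. Genes named for the large subunit held 4933 ± 166 CPM in NP and 5095 ± 213 in HF + LP, and those named for the small subunit 1886 ± 82.0 and 1868 ± 52.9. Counted against all reads, mitochondrial ones included, the shares were 4245 ± 146 CPM in HF, 3948 ± 250.3 in HF + LP, 3939 ± 268 in LP and 3878 ± 278 in NP, and here HF, the group with the lowest mitochondrial percentage, had the highest mean.

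The genes varied little between mice on the same diet. Their median coefficient of variation over the 5 mice of a group was 9.60% in HF, 9.77% in NP, 11.2% in HF + LP and 14.1% in LP, below that of all 10159 tested genes over the same level (14.9%, 13.7%, 16.3% and 19.2%). In LP the values of mice 13 and 20 lay apart, and the mean deviation of the 74 genes from their means over all mice was -0.21 and -0.23 on the log2 scale in them, while the other 18 mice lay between -0.07 and 0.15. LP mouse 13 was the lowest of all 20 mice for 30 of 74 genes and LP mouse 20 for 24. LP mouse 13 lay below every NP mouse for 44 genes and LP mouse 20 for 53, against 5 to 13 in the other LP mice. The deviations were not uniform, since Mrpl4, Mrpl27 and Mrps6 were among the genes above their means in LP mouse 13.

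**Figure D2:**
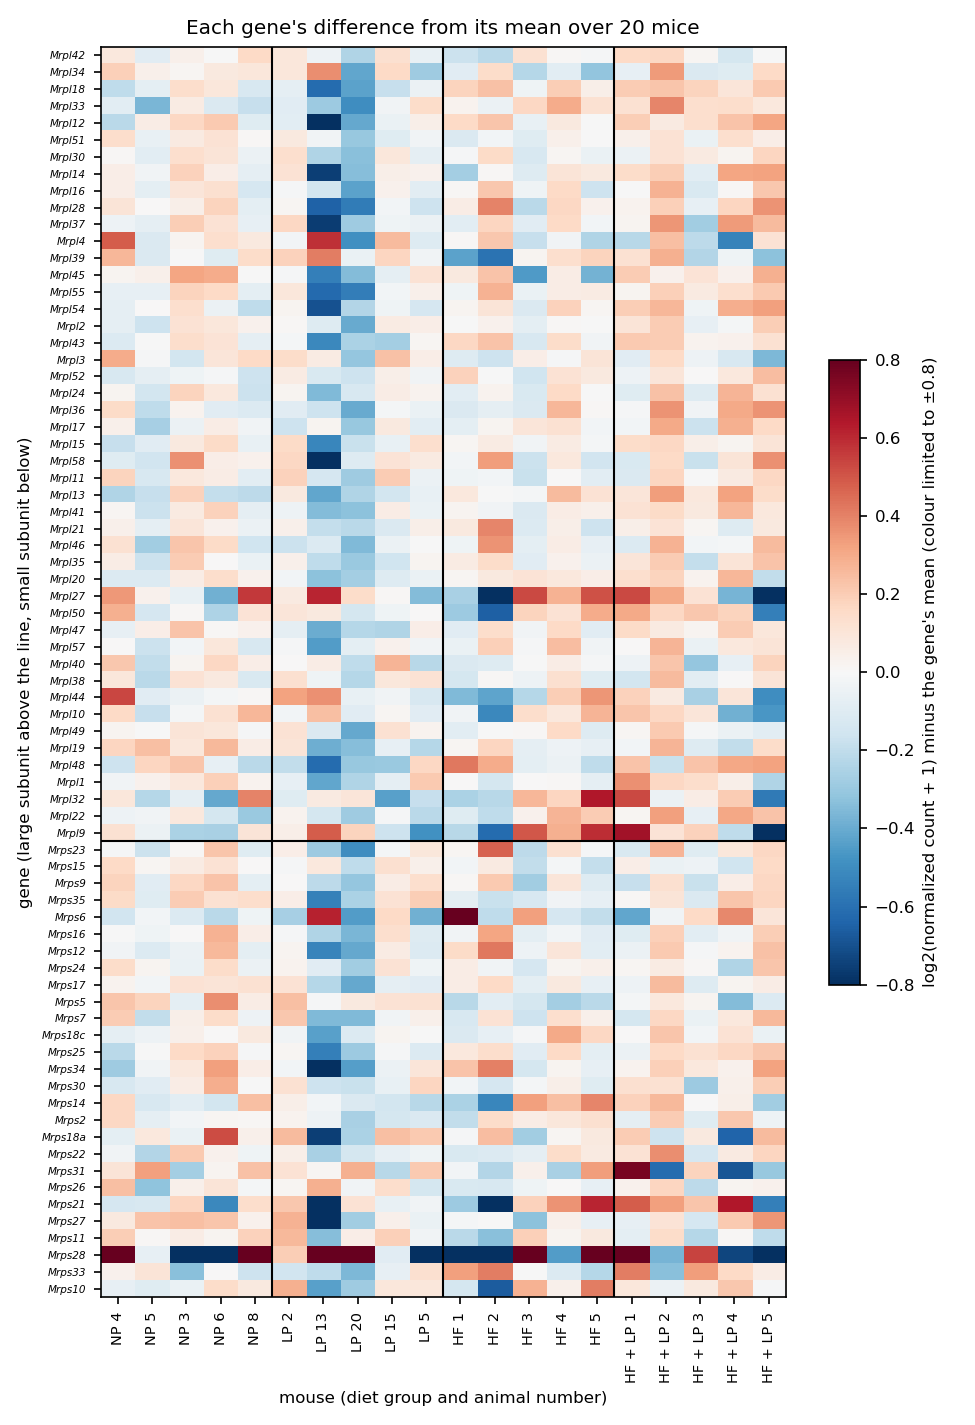
Deviation of log2(normalized count + 1) from each gene's mean over 20 mice, for the 74 genes with a mean normalized count over 50, with large-subunit genes above the horizontal line, small-subunit genes below it and mice in columns by diet. Columns LP 13 and LP 20 are mostly blue (mean deviations of -0.21 and -0.23), and the row of Mrps28 alternates between dark red and dark blue within every diet.

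Between diets, group means differed little. The highest group mean was 1.15 times the lowest in the median of the 74 genes, against 1.21 times over all tested genes at that level. It was under 1.25 times for 61 of 74 genes (82.4%), against 61.7% of all such genes. Mrpl38 had the smallest ratio, 1.04, and Mrps28 the largest, 1.47.

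The effect of the high-fat diet was tested by comparing HF with NP. None of the 78 genes passed an adjusted p under 0.01 with a mean count over 50 in edgeR's quasi-likelihood test over all 13991 tested genes, nor in DESeq2, against 0.364% of all genes above that count in edgeR and 1.62% in DESeq2. At an unadjusted threshold of 0.05, 1 gene was higher (Mrpl33) and 1 lower (Mrps5) in edgeR, against 5.17% higher and 7.91% lower of all tested genes. DESeq2 gave 2 and 1, and edgeR with only these 2 groups in the fit gave 3 and 1. The median log2 fold change of the 78 genes was -0.0004, that of all tested genes -0.001, and 39 of the 78 estimates were positive. The summed level of the 6 cardiomyocyte markers differed between these groups without overlap, at 49568 to 57369 CPM of nuclear counts in HF and 60226 to 68041 in NP. The 6 macrophage markers lay at 621 to 810 CPM in HF and 441 to 632 in NP, and the 5 endothelial markers at 826 to 992 and 717 to 832, both with a small overlap, and no marker of these lists was at 0. The part of these shifts in the values that follow was not tested.

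Mrps5, a small-subunit protein whose worm counterpart is known from work on lifespan, gave the strongest evidence. Its normalized counts were 921, 894, 749, 1025 and 824 in NP (animals 4, 5, 3, 6 and 8) and 679, 745, 716, 654 and 680.4 in HF (animals 1 to 5). The highest HF mouse lay just below the lowest NP mouse, so the groups did not overlap. The log2 fold change was -0.35 ± 0.10 (SE; 95% interval -0.55 to -0.15), with an adjusted p of 0.0771 in edgeR and 0.0319 in DESeq2, both above the threshold of 0.01. Mrps5 was the only gene of the set whose groups did not overlap in the lower direction, where 3.6% of all tested genes had such groups, and none did in the higher direction (2.07% of all tested genes). In the other groups Mrps5 read 935, 786, 834, 857 and 862 in LP (animals 2, 13, 20, 15 and 5) and 782, 838, 802, 622 and 732 in HF + LP (animals 1 to 5). LP thus lay within the NP range, and HF + LP overlapped both NP and HF.

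Mrpl33, a small protein of the large subunit, had counts of 2157, 1773, 2393, 2106 and 2013 in NP and 2330.4, 2210.0, 2559, 2806 and 2488 in HF, in the same animal order. The groups overlapped in NP mouse 3, and the log2 fold change was 0.25 ± 0.11 (SE) with an adjusted p of 0.361 in edgeR. Mrpl33 lies at chr5:31596935-31664384 (GRCm38), a span that also holds Rbks on the other strand and Gm43809 on its own, and reads in the shared part cannot be told apart, for Rbks because the counting is not stated to use strand and for Gm43809 on either setting. By p, Mrpl13 and Mrpl52 of the large subunit came next among the genes with positive estimates, and Mrps35 and Mrps15 of the small subunit among those with negative ones. Mrps35 averaged 1165 ± 89.0 in NP against 1012 ± 40.2 in HF (SD). Its log2 fold change was -0.20 ± 0.12 (SE), with an adjusted p of 0.494 in edgeR. For 62 of the 74 genes the 95% interval of the HF change lay within 0.5 on the log2 scale of no change, and for 73 within 1, Mrps28 being the exception. The count of 2 genes at the unadjusted threshold was 1 without NP mouse 4, 5, 6 or 8 or HF mouse 3, 4 or 5. It was 4 without LP mouse 13, which is in neither group but enters the filter, the scaling and the estimate of spread shared by all mice.

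**Figure D3:**
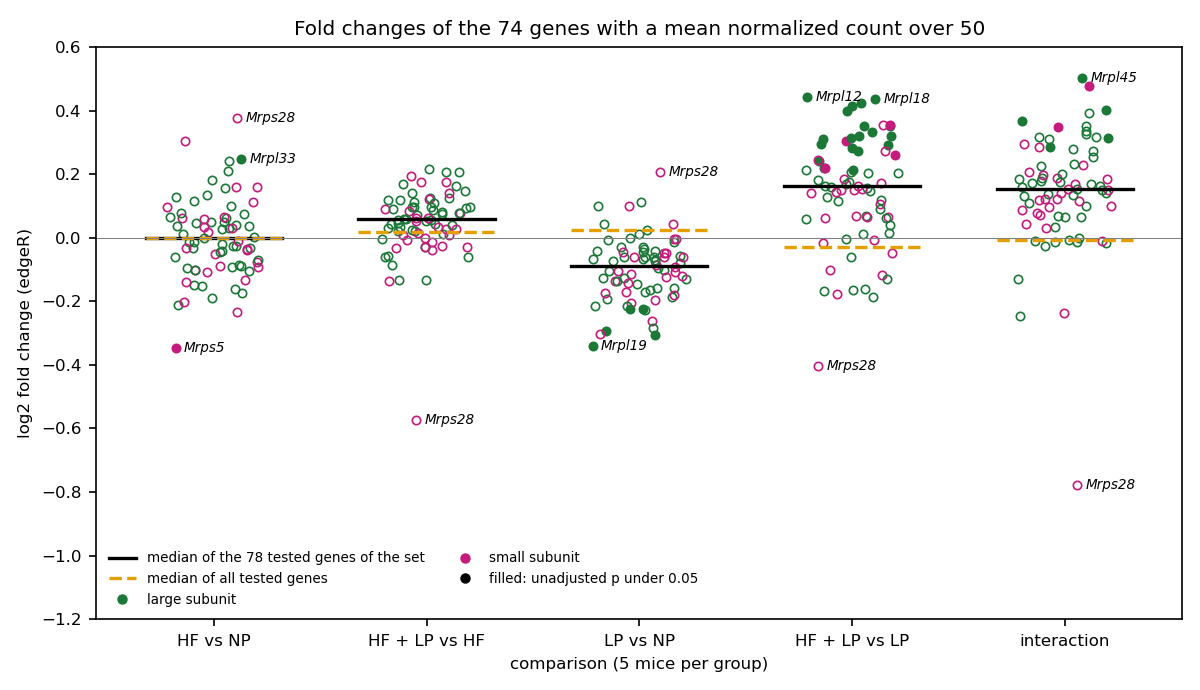
edgeR log2 fold changes of the 74 genes with a mean normalized count over 50 in the 4 comparisons and the interaction (5 mice per group), coloured by subunit and filled at an unadjusted p under 0.05, with the median of the 78 tested genes of the set (solid) and of all tested genes (dashed). The HF estimates centre on 0, the HF + LP against LP estimates centre on 0.16, and Mrps28 reaches -0.57 in HF + LP against HF without being filled.

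The effect of protein restriction on the high-fat background was tested by comparing HF + LP with HF. No gene of the set was called in edgeR or in DESeq2, against 0% of all genes above the count minimum in edgeR and 0.159% in DESeq2, and none reached an unadjusted p under 0.05 in either tool, against 2.41% higher and 2.43% lower of all tested genes in edgeR. The median log2 fold change was 0.06, against 0.02 over all tested genes, and 60 of 78 estimates were positive. The 6 macrophage markers lay at 434 to 636 CPM of nuclear counts in HF + LP, below the HF range of 621 to 810 except for a small overlap, and the 5 fibroblast markers at 1364 to 1811 in HF + LP and 1641 to 2209 in HF. No marker of either list was at 0, and their part in the estimates was not tested. Mrpl41, a large-subunit protein, was the only gene of the set whose groups did not overlap, with 753, 726, 685, 773 and 763 normalized counts in HF (animals 1 to 5) and 803, 823, 783, 889 and 785 in HF + LP (animals 1 to 5). The gap was small, and the log2 fold change was 0.14 ± 0.09 (SE), with an adjusted p of 0.999 in edgeR. Of all tested genes 0.543% had groups that did not overlap in the higher direction and 0.636% in the lower. Among the positive estimates Mrpl36, Mrpl14 and Mrps35 had the smallest p, with 0.21 ± 0.11 for Mrpl36 (SE, adjusted p = 0.999 in edgeR). The 95% interval lay within 0.5 on the log2 scale for 68 of 74 genes. The count of 0 at the unadjusted threshold was 1 without HF mouse 4 or HF + LP mouse 1.

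Protein restriction with normal fat was tested by comparing LP with NP. No gene of the set was called in edgeR or DESeq2, against 0% of all genes above the count minimum in edgeR and 0.0397% in DESeq2. At an unadjusted 0.05 threshold 5 genes were lower and 0 higher in edgeR, against 2.21% lower and 5.02% higher of all tested genes, and DESeq2 gave 7 and 0. With only these 2 groups in the fit 2 were lower and 0 higher. All 5 belong to the large subunit (Mrpl19, Mrpl47, Mrpl28, Mrpl45 and Mrpl18), and all had overlapping groups, as did every other gene of the set in this comparison (0.343% of all tested genes had groups apart in the lower direction and 0.443% in the higher). The median log2 fold change was -0.09 against 0.02 over all tested genes, and 67 of 78 estimates were negative. The cardiomyocyte markers summed to 52020 and 49592 CPM of nuclear counts in LP mice 13 and 20, against 58976 to 64892 in the other LP mice and 60226 to 68041 in NP. The macrophage markers summed to 920 in LP mouse 13, the highest of the 20 mice, and to 566 in LP mouse 20, against 350 to 821 in the other LP mice and 441 to 632 in NP. No marker of these lists was at 0, and their part in the LP values was not tested.

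Mrpl19 had the smallest p. Its counts were 430 (animal 4), 451, 406, 456 and 398 in NP and 410 (animal 2), 291, 301, 364 and 326 in LP, where 291 and 301 were mice 13 and 20. The other LP mice except animal 2 also lay below the NP range. The log2 fold change was -0.34 ± 0.11 (SE), with an adjusted p of 0.476 in edgeR. Without LP mice 13 and 20 it was -0.22 ± 0.12 (SE, adjusted p over 0.99 in edgeR), the median over the 79 genes then tested was -0.01 (0.0038 over all tested genes), and 0 genes passed the unadjusted threshold, against 1.66% higher and 1.02% lower of all tested genes. The count of 5 became 1 without LP mouse 13 or LP mouse 20, 2 without NP mouse 3 or 6, and 3 without HF mouse 4, HF + LP mouse 1 or HF + LP mouse 4, while it was 11 without LP mouse 2 and 10 without LP mouse 5.

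The high-fat diet on the low-protein background was tested by comparing HF + LP with LP. No gene of the set was called in edgeR, where 0.138% of all genes above the count minimum were, and 1 was called in DESeq2 (Mrpl18), where 84 of 10086 such genes (0.833%) were. At an unadjusted 0.05 threshold 22 of 78 genes were higher and 0 lower in edgeR, against 6.26% higher and 9.66% lower of all tested genes, and DESeq2 gave 23 and 0. With only these 2 groups in the fit 13 were higher and 0 lower. Of the 22, 18 are named for the large subunit and 4 for the small subunit (Mrps12, Mrps22, Mrps25 and Mrps34). The median log2 fold change was 0.16 against -0.03 over all tested genes, at 0.19 for genes named for the large and 0.15 for those named for the small subunit (Mrps18a among the latter), and 64 of 78 estimates were positive. This comparison and that of LP with NP share the LP mice, so their values are not independent.

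Mrpl18, a protein of the central protuberance of the large subunit, had the smallest p. Its counts were 2212, 1513, 1724, 2047 and 2246 in LP (animals 2, 13, 20, 15 and 5) and 2670 (animal 1), 2709, 2623, 2487 and 2680.0 in HF + LP. Every HF + LP mouse lay above every LP mouse. The log2 fold change was 0.44 ± 0.11 (SE), with an adjusted p of 0.0777 in edgeR and 0.00603 in DESeq2. Without LP mice 13 and 20 it was 0.27 ± 0.10 (SE), with an adjusted p of 0.474 in edgeR. In the other groups Mrpl18 read 2016, 2204, 2565, 2467 and 2124 in NP and 2628, 2728, 2267, 2662 and 2396 in HF, so HF + LP overlapped both. Mrpl18 lies at chr17:12911349-12916345 (GRCm38, minus strand) and overlaps Tcp1 on the other strand. Many other genes named here also overlap an annotated gene, such as Mrpl12 and Mrpl19 on the other strand and Mrps34 and Mrps6 on their own. Their counts carry the same limit.

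Mrpl12, which also binds the mitochondrial RNA polymerase, had counts of 2013, 1096, 1613, 2057 and 2208 in LP and 2452, 2244, 2352, 2506 and 2660.4 in HF + LP. The groups did not overlap, but LP mouse 13 lay far below the rest, and the log2 fold change of 0.44 ± 0.14 (SE, adjusted p = 0.145 in edgeR) became 0.21 ± 0.11 (SE, adjusted p = 0.696 in edgeR) without mice 13 and 20. Mrpl13, Mrpl41 and Mrpl43 also had groups that did not overlap in the higher direction, so that 5 of 78 genes did where 0.915% of all tested genes did, and 0 did in the lower direction (0.951% of all tested genes). Mrpl54 (0.41 ± 0.12), Mrpl28 (0.40 ± 0.13) and Mrpl48 (0.42 ± 0.15) had estimates of similar size with overlapping groups (log2 fold change ± SE, adjusted p from 0.112 to 0.180 in edgeR). Leaving out LP mice 13 and 20, they were 0.25 ± 0.10, 0.19 ± 0.12 and 0.27 ± 0.17 (adjusted p from 0.544 to 0.802 in edgeR), and Mrpl13, Mrpl41 and Mrpl43 went from 0.35, 0.27 and 0.32 to 0.23, 0.14 and 0.19. Among the genes with negative estimates Mrps5 had the smallest p, with -0.18 ± 0.10 (SE, adjusted p = 0.370 in edgeR).

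The count of 22 was 14 without LP mouse 13, 13 without LP mouse 20 and 6 without both, of which 5 were higher and 1 lower, and the median log2 fold change without both was 0.08. In the same fit 380 of 14141 tested genes were higher and 680 lower at that threshold. For 46 of 74 genes the 95% interval lay within 0.5 on the log2 scale in the fit with all mice.

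**Figure D4:**
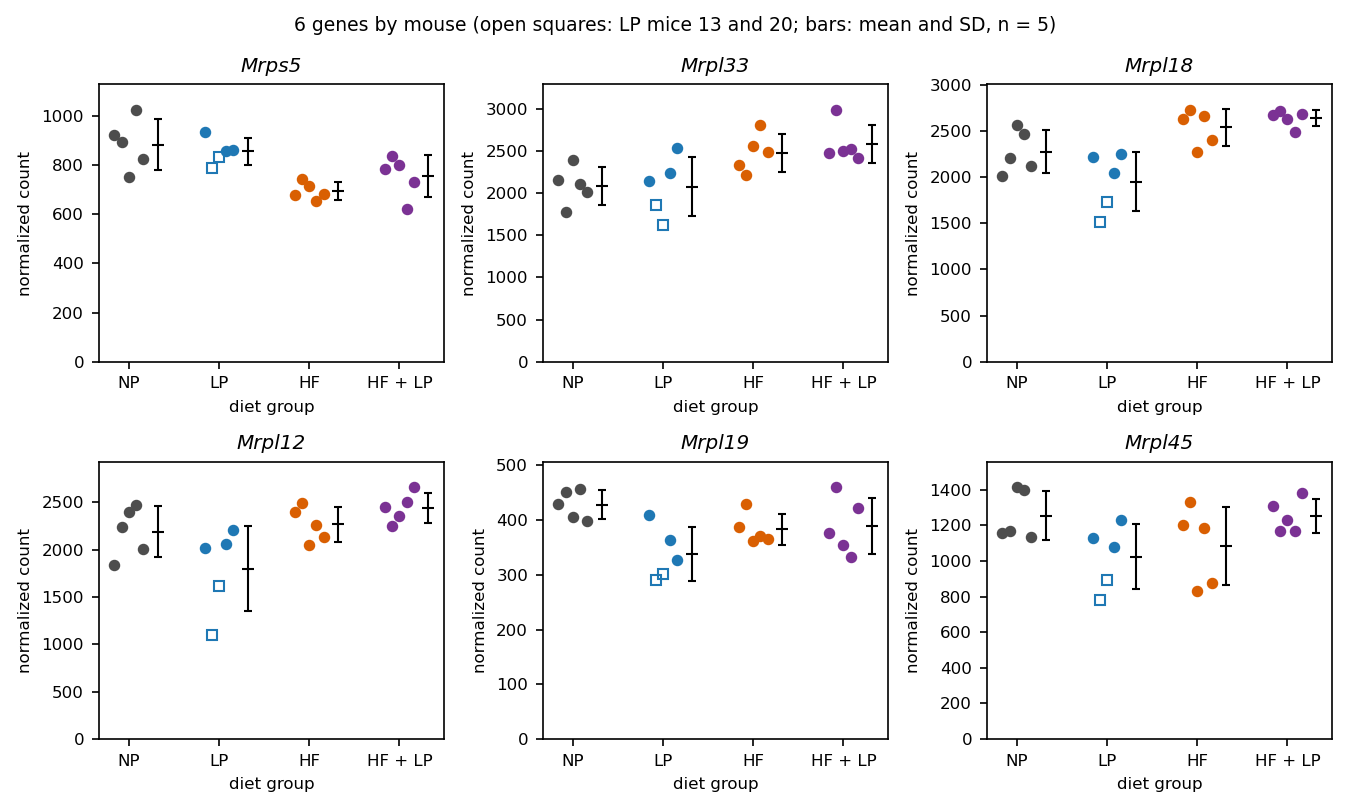
Normalized counts of 6 genes in each mouse by diet group (linear axes from 0, bars for mean and SD, n = 5), with LP mice 13 and 20 as open squares. Mrps5 shows HF points below all NP points (highest HF 745, lowest NP 749), and in Mrpl18, Mrpl12, Mrpl19 and Mrpl45 the open squares are the lowest of the LP points.

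Whether the effect of protein restriction depended on fat was tested as an interaction, the HF + LP against HF difference minus the LP against NP difference. No gene of the set was called in edgeR or DESeq2, against 0% of all genes above the count minimum in edgeR and 0.00991% in DESeq2. At an unadjusted 0.05 threshold 7 were higher and 0 lower in edgeR, against 2.86% higher and 4.31% lower of all tested genes, and DESeq2 gave 6 and 0. The median estimate was 0.15 against -0.01 over all tested genes. Mrpl45, which anchors the large subunit at the inner membrane, had the smallest p, at 0.50 ± 0.20 (SE, log2, adjusted p = 0.683 in edgeR). Without LP mice 13 and 20 it was 0.32 ± 0.19 (SE, adjusted p over 0.99 in edgeR). Its group means were 1255 ± 139 for NP, 1024 ± 183 for LP, 1085 ± 220.2 for HF and 1253 ± 94.5 for HF + LP (SD over 5 mice), and all groups overlapped. The others were Mrpl19, Mrpl47, Mrpl41, Mrpl14, Mrps27 and Mrps35. Without LP mice 13 and 20 the count was 0, against 1.57% higher and 1.8% lower of all tested genes, and the median 0.07, against 0.0040 over all tested genes. The count was 1 without LP mouse 13 or LP mouse 20, 2 without NP mouse 3 or HF + LP mouse 2, 3 without NP mouse 6, HF mouse 1, HF mouse 3 or HF + LP mouse 4, 4 without HF mouse 5, and 11, 13 and 12 without LP mouse 15, 2 or 5.

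Several of these genes are known from inherited disease of the heart or of mitochondrial translation. Mrpl44, linked to hypertrophic cardiomyopathy, averaged 491 ± 97.3 for NP, 494 ± 81.1 for LP, 441 ± 109 for HF and 440.4 ± 82.9 for HF + LP (normalized counts, SD over 5 mice). Mrpl3, also linked to cardiomyopathy, averaged 1004 ± 116, 979 ± 132, 932 ± 70.1 and 894 ± 114 in the same order. Mrps22 averaged 449 ± 49.4, 423 ± 33.3, 446 ± 38.0 and 492 ± 62.5, and Mrps16 1041 ± 96.1, 924 ± 125, 1014 ± 128 and 1025 ± 106. Mrps34, linked to Leigh syndrome, averaged 629 ± 94.8, 526 ± 128, 656 ± 104 and 671 ± 59.0, with 341 in LP mouse 13 as its lowest value. Mrps12, the counterpart of the bacterial streptomycin-site protein, averaged 952 ± 104, 841 ± 148, 1029.9 ± 149 and 1006 ± 92.4. Groups overlapped for all 6 genes in all 4 comparisons, and none was called in edgeR or DESeq2. Mrps12, Mrps22 and Mrps34 were among the 22 genes higher in HF + LP than in LP at the unadjusted threshold, with log2 fold changes of 0.26, 0.22 and 0.35 that were 0.08, 0.14 and 0.12 without LP mice 13 and 20.

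Mrps28, a small-subunit protein, was the exception to the narrow spread. Its counts were 242 (animal 4), 122, 56.1, 46.5 and 479.5 (animal 8) in NP, 146 (animal 2), 459 (animal 13), 288, 119.7 and 61.5 in LP, 43.2, 14.5, 459, 93.3 and 597 in HF (animals 1 to 5) and 437, 98.3, 186, 76.2 and 22.7 in HF + LP (animals 1 to 5). Each diet thus held both low and high mice, over a 41.2-fold range, where the median of the 74 genes was 1.68-fold, the next was Mrpl27 with 4.16-fold and the narrowest was Mrps15 with 1.29-fold. Its diet estimates had standard errors of 0.84 on the log2 scale and were not called (HF against NP 0.38, adjusted p = 0.915 in edgeR). Mrps28 lies at chr3:8802146-8923918 (GRCm38, minus strand), a span that also holds the pseudogenes Gm15466 and Gm15467. Their part in the pattern was not tested.

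Other genes varied over the mice in a similar order. By Pearson's r of log2 values over the 20 mice, which share their libraries, the genes most like Mrps28 were Slc20a2, a phosphate transporter (0.99), Sdhd, a subunit of succinate dehydrogenase (0.99), Trip10 (0.98) and Kcnj2, a potassium channel (0.98), with Pmpcb, the mitochondrial processing peptidase, and Hopx, a cardiac homeodomain-only protein, among the next. Mrps28 and these genes were looked at after their values were seen, and r is given as a description. The 5 mice with the most Mrps28 (HF 5, NP 8, HF 3, LP 13 and HF + LP 1) were also the 5 with the most Sdhd and Slc20a2, and HF 2 and HF + LP 5 were the 2 lowest for all 3 genes. Sdhd ran from 71.2 in HF + LP mouse 5 to 3924 in HF mouse 5. These genes lie on chromosomes 8, 9, 17, 11 and 5, and Mrps28 on chromosome 3. In all, 180 of 10158 other genes had an r over 0.9 with Mrps28, whereas the median for the other 73 genes of the set was 0 and the highest 88, for Mrpl27. Mrpl27, a large-subunit protein, read 776, 625, 585, 467 and 902.5 in NP, 643, 931, 677, 615 and 480.1 in LP, 509.8, 270.2, 880.2, 741 and 869 in HF, and 881, 753, 662, 471 and 224 in HF + LP, in the same animal order. Its 2 lowest mice were again HF + LP 5 and HF 2.

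**Figure D5:**
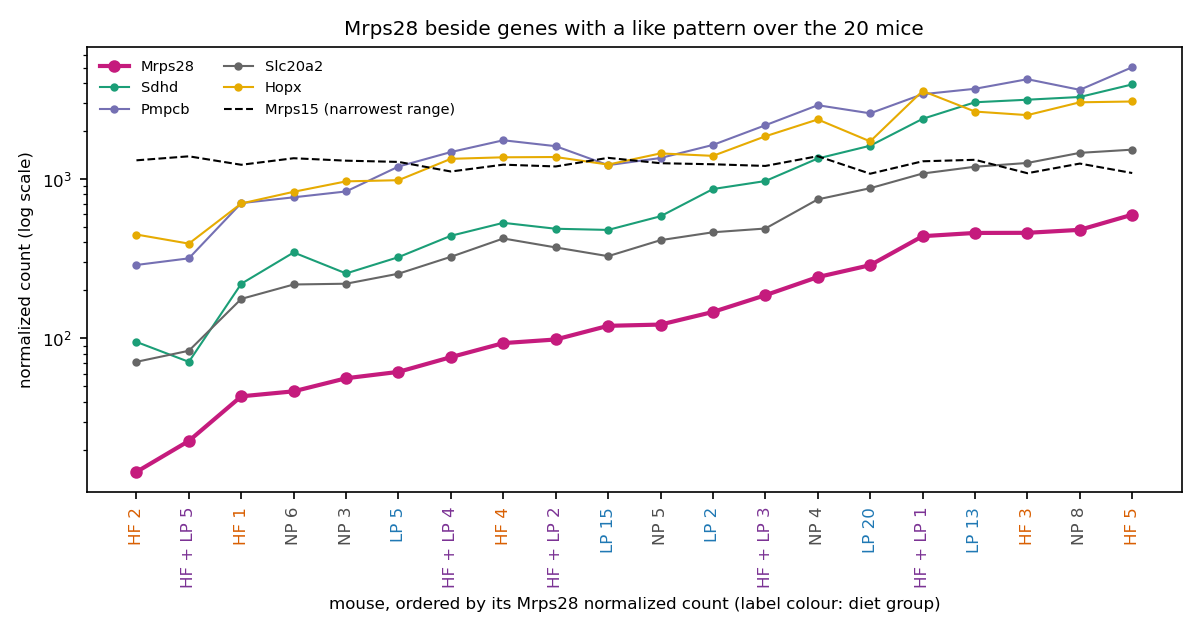
Normalized counts (log axis) of Mrps28, of 4 genes with a like pattern and of Mrps15, the gene of the set with the narrowest range, in 20 mice ordered by Mrps28 and labelled in the colour of their diet. The lines of Sdhd, Pmpcb, Slc20a2 and Hopx climb with Mrps28 from 14.5 in HF 2 to 597 in HF 5, Mrps15 stays level, and the diets are mixed along the axis.

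The rest of the mitochondrial translation apparatus was read from 5 further lists. No gene of any list was called in edgeR in any comparison. All 5 mitoribosome subunits with other names (such as Dap3 and Ptcd3) stayed above an unadjusted p of 0.05 in all comparisons. Counts at an unadjusted 0.05 are to be read against the shares of all tested genes given above for each comparison. In HF against NP, where 7.91% of all tested genes were lower, 2 of 30 assembly and rRNA modification genes were lower at that threshold and 0 higher, namely Dhx30, an assembly helicase (-0.23 ± 0.10), and Gtpbp6 (-0.25 ± 0.12, log2 fold change ± SE, adjusted p = 0.308 and 0.366 in edgeR). Likewise 2 of 19 translation factors were lower and 0 higher, namely Gatc, a subunit of the glutamyl-tRNA amidotransferase (-0.34 ± 0.10), and Mtfmt, the methionyl-tRNA formyltransferase (-0.35 ± 0.13, adjusted p = 0.119 and 0.240 in edgeR). In HF + LP against HF, 1 of 19 translation factors was higher (Gatc, 0.22 ± 0.10). In LP against NP, 1 was lower (Gfm2, a recycling factor, -0.28 ± 0.13). In HF + LP against LP, 4 of 19 translation factors were higher and 0 lower, with Mtrf1l, a release factor, at 0.33 ± 0.10 (adjusted p = 0.132 in edgeR), and 2 of 30 assembly genes were higher and 1 lower, with Fastkd2 at 0.37 ± 0.12 and Gtpbp6 at -0.35 ± 0.12. Of 13 tested genes for mitochondrial transcription and its regulators, 1 was higher (Tfb2m, 0.78 ± 0.32) and 1 lower (Nrf1, -0.46 ± 0.15, adjusted p = 0.143 in edgeR) in that comparison and 0 in the other 4. In the interaction, 1 of 19 translation factors was higher (Gfm2, 0.40 ± 0.18). With LP mice 13 and 20 left out, these counts in HF + LP against LP were 1 higher and 0 lower for translation factors, 0 and 0 for assembly genes, and 0 and 1 for transcription genes, and in LP against NP and the interaction no translation factor, assembly or transcription gene passed. In HF + LP against LP the log2 fold changes were then 0.28 for Mtrf1l, 0.22 for Fastkd2, -0.22 for Gtpbp6, 0.76 for Tfb2m and -0.36 for Nrf1, and Gfm2 was at -0.15 in LP against NP and 0.26 in the interaction.

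The products of the mitochondrial ribosome were represented by 8 of the 13 mitochondrially encoded protein genes. In HF + LP against LP 5 of 8 were higher at an unadjusted 0.05 and 0 lower, against 6.26% and 9.66% of all tested genes, with mt-Co1 at 0.58 ± 0.18 and mt-Nd1 at 0.39 ± 0.12 (log2 fold change ± SE, adjusted p = 0.126 and 0.128 in edgeR), and the median over the 8 was 0.40. In HF + LP against HF 2 were higher and 0 lower, with a median of 0.27. In LP against NP 2 were lower and 0 higher, with a median of -0.29, and in HF against NP 1 was higher (mt-Nd6) and 1 lower (mt-Nd4), with a median of -0.13. The interaction had 5 higher and 0 lower, with a median of 0.54. Without LP mice 13 and 20, 3 of 8 were higher and 0 lower in HF + LP against LP (median 0.28; 2.69% and 4.81% of all tested genes), 3 and 0 in the interaction (median 0.42; 1.57% and 1.8%), and 0 and 0 in LP against NP (median -0.15; 1.66% and 1.02%). In that fit mt-Co1 and mt-Nd1 were at 0.32 ± 0.12 and 0.23 ± 0.10 in HF + LP against LP (log2 fold change ± SE, adjusted p = 0.511 and 0.593 in edgeR). These messenger RNAs carry short poly(A) tails, and the reads were primed from oligo(dT).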

How the data were processed

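The authors sequenced 3′ ends of mRNA (QuantSeq) from left ventricles, used BlueBee software for alignment, and deposited a table of raw counts, with Ensembl genes in rows and mice in columns. The submitters' processing notes name GRCm38 and DESeq2 1.22.2; the annotation, counting program and strand setting are not given in the sources used here. Symbols were matched for 15917 of 15956 genes, and coordinates are those of GENCODE M21 (GRCm38). Counts were analysed with edgeR 4.0.16 in R 4.3.3: filterByExpr by diet (13991 genes kept), TMM scaling, and 1 quasi-likelihood model over all 20 mice, with Benjamini-Hochberg adjustment over all tested genes. A call needed a mean normalized count above 50 together with an adjusted p below 0.01. Named genes were those with the smallest p in each direction, with groups that do not overlap, with the most and fewest counts, and a list with known roles. The genes and lists were chosen with earlier results of these data known, so no set test was run. DESeq2 1.42.0, RLE scaling, other filters, a library-name factor, an animal-number block, 2-group fits and leaving out each mouse were alternatives, and leaving out LP mice 13 and 20 together was added after the data were seen. The script was tested on simulated data. No replicate pair was a duplicate library (lowest chi-square per gene 13.4). Separate mice were the replicates. The number of reads limits the precision of low genes.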

Additional observations from a re-analysis of the deposited data

Results flagged for a closer look

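In 164 groups of 5 values examined (41 quantities in 4 diets), 9 (5.49%) held a mouse that stood far from the other 4 by Dixon's ratio, about the 1 in 20 that chance gives. NP mouse 3 had 869 normalized counts of Mrpl13, the other NP mice 648 to 673. NP mouse 4 had 664 of Mrpl44, the others 431 to 461. NP mouse 6 stood apart for 3 genes with small-subunit names, with 1135 of Mrps12 (others 877 to 930), 1209 of Mrps16 (others 973 to 1034) and 658 of Mrps18a (others 433 to 485). HF mouse 2 had 1240.1 of Mrps16, the others 935 to 979. HF + LP mouse 2 had 2989 of Mrpl33, the others 2419 to 2519, and 7432 CPM of nuclear counts on the whole set, the others 6822 to 6882. LP mouse 13 had 6.92 of the pseudogene Mrps36-ps1, the others 1.03 to 1.44.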

How the results depend on the processing

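No gene of the set was called under any alternative except Mrpl18 in HF + LP against LP with DESeq2 (1 gene, adjusted p = 0.00603). An adjusted p under 0.05 was reached by 0 genes in edgeR with all mice, by Mrps5 in HF against NP (0.0319) and by Mrpl18, Mrpl54 (0.0293) and Mrpl13 (0.0434) in HF + LP against LP with DESeq2, and by Mrpl18 in the latter without LP mouse 2 (0.0439) or LP mouse 5 (0.0309). Median log2 fold changes moved by more than the spread between mice (0.082) only without LP mice 13 and 20 together, to 0.075 in HF + LP against LP and 0.070 in the interaction. In LP against NP the same step took the median from -0.089 to -0.013, a move just under that spread that left little of the median. Counts at an unadjusted 0.05 moved more. They became 1, 1 and 3 with the library-name number as a factor (HF against NP, LP against NP, interaction), 4, 2 and 13 with only the groups compared (HF against NP, LP against NP, HF + LP against LP), 3 with at least 10 counts in every library (LP against NP), 4 with RLE scaling (interaction), and 5, 2, 0, 6 and 0 without LP mice 13 and 20 (HF against NP, HF + LP against HF, LP against NP, HF + LP against LP, interaction). Leaving out each mouse gave 1 to 4 in HF against NP, 0 to 1 in HF + LP against HF, 1 to 11 in LP against NP, 13 to 29 in HF + LP against LP and 1 to 13 in the interaction. With the animal number as a replicate block the counts were 2 (LP against NP), 0 (HF + LP against LP) and 2 (interaction), and 0 genes were called. The 16 same-numbered pairs of mice had deviations that correlated between -0.55 and 0.49, so the numbers do not pair the mice. Of 950 values of named genes under alternatives, 945 kept their direction and their side of the threshold, and 4 turned direction: Mrps6 (-0.23 to 0.095 on leaving out each mouse, positive without HF mouse 1) and Mrps28 (-1.34 to 0.080, positive without HF mouse 5) in HF + LP against HF, and Mrps6 (0.016 with the replicate block) and Mrps28 (0.23 without LP mice 13 and 20) in the interaction. None of these genes was called in the main fit, so only a new call could change the side of the threshold. Values that kept their direction could still shrink, and many alternatives left out a mouse outside the comparison. CPM shares of all counts became 6821, 6601, 6930 and 6965 over nuclear counts alone (NP, LP, HF, HF + LP), and 3619, 3667, 3976 and 3694 without Mrpl42, in the same order. The first setting leaves mitochondrial counts out of the total, and the second leaves Mrpl42 out of the set. The cause of the other shifts given above was not tested. Depth limits Mrps18b, Mrpl23, Mrps36 and the pseudogenes, and reads of Mrpl23 and Mrps36 can also be confused with those of their pseudogenes.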
